A study of Mus musculus with 4 samples.

Results

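Amino acid transporters of the plasma membrane were examined in sorted mouse LSK cells, a blood-forming fraction defined by Kit and Sca-1 and by the lack of lineage markers, which contains the blood stem cells. The 10 genes were taken from a fixed list: Slc7a5, Slc3a2, Slc7a1, Slc7a6, Slc7a11, Slc38a1, Slc38a2, Slc1a4, Slc1a5 and Slc43a1. All 10 were found among the 45232 gene rows of the count tables, and all 10 passed the filter on low counts. Long-term haematopoietic stem cells marked with GFP had been transplanted into mice, and GFP-positive LSK cells were sorted from the recipients 3 months later. In the Scr group the transplanted cells carried the control. In the other group, miR-99 KD, the microRNA miR-99 was knocked down. Both groups share the transplantation and the GFP mark, and cells of 2 mice gave 2 libraries per group. The vector and promoter of the knockdown, and the strain, age and sex of the mice, were not given in the sources used here.

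Animal cells cannot make all amino acids and cannot pass them through the lipid membrane unaided, so growth depends on carrier proteins. Some carriers take amino acids up with sodium, and others exchange one amino acid for another. Leucine, arginine and glutamine that enter this way feed protein synthesis and signal to the kinase complex mTORC1. Slc3a2 encodes a heavy chain (CD98) that carries several light chains of the Slc7 family to the cell surface, among them those of Slc7a5, Slc7a6 and Slc7a11. Shortage of amino acids is known to raise the transcription factor Atf4, which binds amino acid response elements in front of transporter and synthesis genes. Mtor itself is a published target of the miR-99 family.

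The 3 mature microRNAs of the miR-99 family are shown because miR-99 was knocked down and a match to the seed is a common mark of direct targets. The sample titles do not say which of the 3 the knockdown acts on. Totals pasted below the gene rows of the knockdown libraries carry the name Zip99a, which was not interpreted further. Sequences are RefSeq's on GRCm38.p6, written 5′ to 3′, with the seed (bases 2 to 8) in capitals. They lie on the plus strand at chr16:77598940-77598961 (miR-99a), chr17:17830194-17830215 (miR-99b) and chr9:41531437-41531458 (miR-100).
mmu-miR-99a-5p: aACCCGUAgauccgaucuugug
mmu-miR-99b-5p: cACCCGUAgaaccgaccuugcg
mmu-miR-100-5p: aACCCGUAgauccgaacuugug
All 3 share the seed ACCCGUA. None of the 10 transporters held its full match, TACGGGT, in the longest annotated 3′ untranslated region, where 1.38% of 12801 genes searched held one. The shorter match to bases 2 to 7, ACGGGT, was present in 2 of the 10 transporters and in 6.86% of the genes searched. The regions of the transporters were longer, with a median of 2077 bases against 1181. The 2 short matches, from the GENCODE M21 transcripts, are in capitals below, and neither was followed by an A.
Slc7a1: tgacagcggttgACGGGTgcccgtagaagc
Slc38a1: tgcatctctgccACGGGTcacctgctgggt
The match began at base 35 of the region in Slc7a1 and at base 2847 in Slc38a1. In the libraries these 2 genes differed in opposite directions, with Slc7a1 higher and Slc38a1 lower in both knockdown libraries, and neither passed a test.

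Amino acid response elements were searched with the letters TGATGNAA on both strands, in windows of 250 bases before to 50 bases after each gene's start. RefSeq's table on GRCm38.p6 held windows for 7 of the 10 transporters, and the others were Slc7a5, Slc38a1 and Slc1a5. The letters occurred in Slc7a11 and Slc1a4, and in 3.97% of all 32851 windows. The sites are shown because they were found in the 2 members with the lowest RNA levels. Capitals mark the match, and TTGCATCA is the motif on the opposite strand.
Slc7a11, chr3:50443662-50443689, minus strand: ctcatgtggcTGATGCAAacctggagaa
Slc7a11, chr3:50443643-50443670, minus strand: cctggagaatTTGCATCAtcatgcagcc
Slc1a4, chr11:20332700-20332727, minus strand: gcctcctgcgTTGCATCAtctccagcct
The E-box CACGTG, a site of Myc and related factors, occurred in 1 of the 7 members, Slc43a1, and in 7.15% of all windows. The antioxidant response element TGACNNNGC, searched on both strands, occurred in 4 of the 7, which were Slc38a2, Slc43a1, Slc7a1 and Slc7a6, and in 12.4% of all windows. Members were counted as genes, and these 7 had 9 windows, while the percentages are shares of single windows. The 2 kinds of count are therefore not on the same scale. These are matches of letters, and binding was not measured.

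The libraries held 27295197 to 32350590 gene counts each, and 23052 genes were detected in Scr 1 against 19060 to 19717 in the other 3. The mature microRNAs that the knockdown targets were not measured. Mir99ahg, the host gene of miR-99a, had 397 and 411 reads in Scr against 132 and 195 under the knockdown (log2 difference -1.07 ± 0.31, edgeR adjusted p = 0.248), which does not check the knockdown. CPM is the read count scaled to a common library size with TMM factors. Markers of neutrophils and B cells were highest in miR-99 KD 1, and their sums are given with the other markers after the transporters.

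No transporter passed the main test, the quasi-likelihood test of edgeR, adjusted by Benjamini-Hochberg over all 15320 genes kept, which called 0% of genes. At an unadjusted p under 0.05 edgeR counted 2 of the 10, or 20.0%, against 15.6% of all genes. Slc7a6 was the lower one, where 9.63% of all genes were lower at that p, and Slc43a1 the higher one, where 5.97% were higher. DESeq2 called 1 of the 10, Slc7a6, against 5.79% of all genes, or 4.13% in its direction. The 2 groups of libraries did not overlap in 5 of the 10, against 50.5% of all genes. The count of separated transporters was thus at the background of these libraries. Of these 5, 3 were lower (Slc7a6, Slc1a5 and Slc38a1) and 2 higher (Slc43a1 and Slc7a1), where 26.0% of all genes were lower and 24.5% higher. The median log2 difference (miR-99 KD minus Scr) of the 10 was -0.16, against 0.02 over all genes, with 7 of 10 below 0 against 48.6% of all genes.

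**Figure D1:**
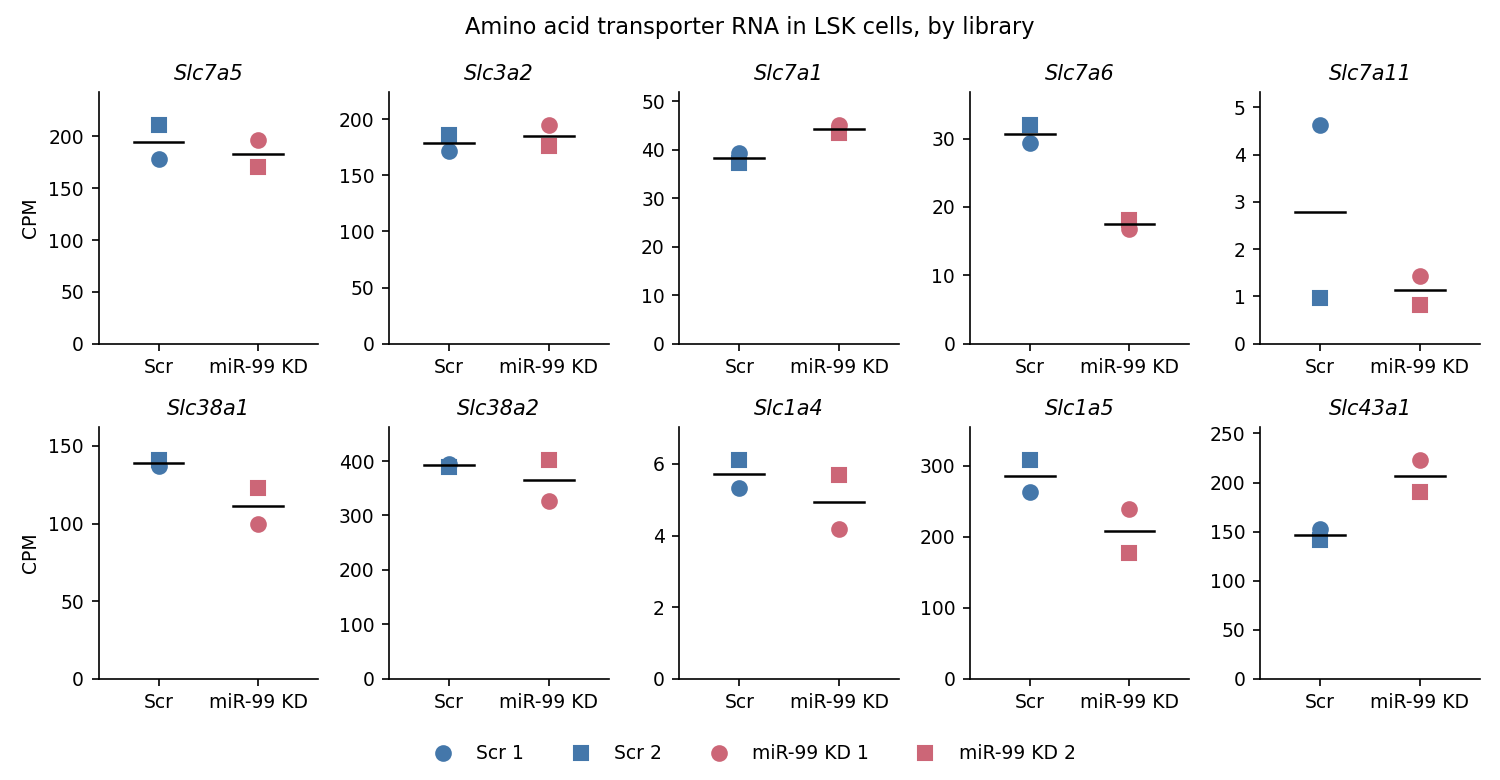
Normalised read counts (CPM, on TMM-scaled library sizes, linear axis from 0) of the 10 transporters in the 2 Scr and 2 miR-99 KD libraries. Each point is 1 library and each bar a group mean. The points of the groups are apart in Slc7a6, Slc1a5, Slc38a1, Slc43a1 and Slc7a1, and the single high point of Slc7a11 is Scr 1 at 4.63 CPM.

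Levels of different genes were set side by side as CPM per kilobase of transcript, averaged over the 4 libraries. The transporters spanned 447-fold. Slc1a5 was highest at 89.3 ± 19.9 CPM per kilobase (SD, n = 4), followed by Slc38a2 at 81.2 ± 7.38. Their ranges over libraries overlapped. Next came Slc3a2 at 60.3 ± 3.35, Slc7a5 at 53.7 ± 5.24 and Slc43a1 at 48.9 ± 10.3 CPM per kilobase, where each range overlapped that of the next. Slc38a1, at 11.7 ± 1.72, stood apart from its neighbours in the order. Slc7a6, at 6.41 ± 2.05, and Slc7a1, at 5.76 ± 0.502, overlapped. Slc1a4, at 1.36 ± 0.212, and Slc7a11, at 0.200 ± 0.182 CPM per kilobase, were lowest and did not overlap. Within a family the levels differed widely, with Slc1a5 first and Slc1a4 ninth in this order, and Slc38a2 second and Slc38a1 sixth.

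The heavy chain and its most abundant partner overlapped between the groups. Slc3a2 (ENSMUSG00000010095) stood at 172 and 186 CPM in the Scr libraries 1 and 2, against 195 and 176 in miR-99 KD 1 and 2. The groups overlapped, with a log2 difference of 0.05 ± 0.13 (SE, 2 libraries a group; edgeR adjusted p = 0.880). Slc7a5 (ENSMUSG00000040010), the light chain that exchanges leucine and other large neutral amino acids, stood at 178 and 211 CPM in Scr against 196 and 170 under the knockdown. Its highest and second lowest values both came from Scr, at a log2 difference of -0.09 ± 0.16 (edgeR adjusted p = 0.817). The 95% interval of the fold ran from 0.818 to 1.31 for Slc3a2 and from 0.714 to 1.24 for Slc7a5. The sign of both differences turned when single libraries were left out. Slc7a5 stood at 0.03 without Scr 2 and 0.01 without miR-99 KD 2, and Slc3a2 at -0.03 without Scr 1 and -0.03 without miR-99 KD 1. With libraries scaled by their totals alone Slc3a2 was at -0.04.

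Slc7a6 (ENSMUSG00000031904), a light chain that exchanges arginine and other cationic amino acids for neutral ones, had the smallest p of the 10 by both tools. It stood at 29.3 and 32.0 CPM in the Scr libraries 1 and 2, against 16.8 and 18.1 in miR-99 KD 1 and 2. Both knockdown libraries were well below both Scr libraries, and the libraries within each group lay close together. The fold was 0.570, with a 95% interval of 0.410 to 0.791, and a log2 difference of -0.81 ± 0.19 (SE, 2 libraries a group). The gene fell by DESeq2, with an adjusted p of 0.0166, and did not pass edgeR, with an adjusted p of 0.226. The DESeq2 call was lost whichever library was left out, at a DESeq2 adjusted p of 0.605 without Scr 1, 0.111 when miR-99 KD 1 was left out, 0.108 when miR-99 KD 2 was, and higher still when Scr 2 was. It was also lost with a replicate block, at an adjusted p of 0.217. The log2 difference itself stayed between -0.89 and -0.74 in these DESeq2 fits.

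Slc7a11 (ENSMUSG00000027737), the light chain that takes up cystine for glutathione synthesis, was counted 155 times in Scr 1, 28 in Scr 2, and 38 and 22 times under the knockdown. These are 4.63, 0.961, 1.44 and 0.828 CPM. Only Scr 1 was high, and Scr 2 lay between the knockdown libraries. The log2 difference was -1.30 ± 0.86 (edgeR adjusted p = 0.497). It turned to 0.21 without Scr 1 and was -2.04 without Scr 2, so that 1 library set its direction. In the same library, 4 of 7 macrophage and monocyte markers and 5 of 7 stem and progenitor markers were at their highest. The macrophage and monocyte markers summed to 480 CPM there, against 209 in Scr 2 and 614 and 349 under the knockdown. Their sum was thus highest in miR-99 KD 1, where Slc7a11 stood at 1.44 CPM. The part of any cell type in the Slc7a11 value was not tested.

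**Figure D2:**
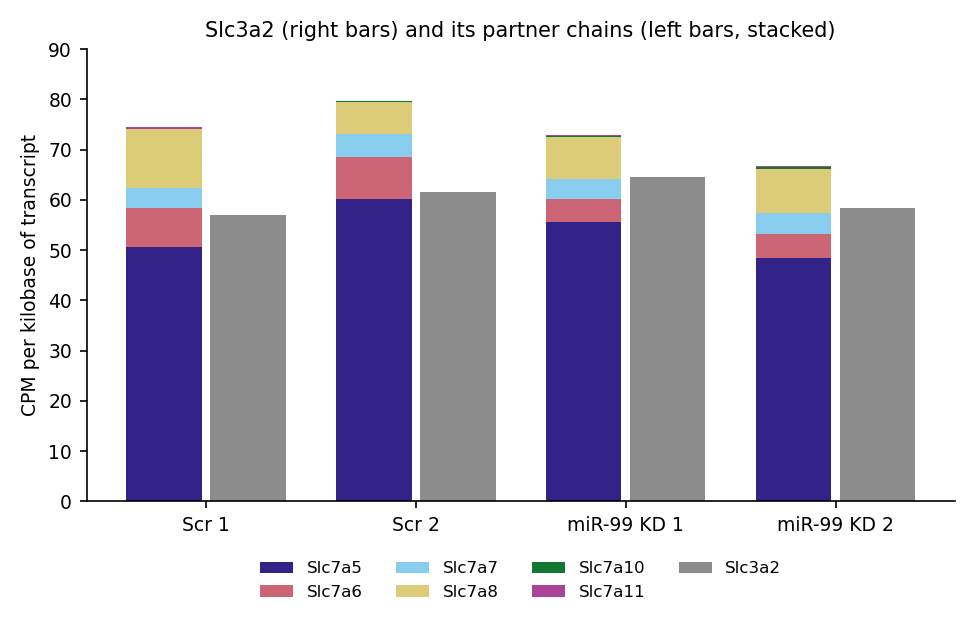
Level per length (CPM per kilobase of transcript, bars from 0) of Slc3a2 and, stacked, of 6 light chains that pair with it, in each of the 4 libraries. Slc7a5 makes up most of each stack, and the Slc7a6 layer is thinner in both knockdown libraries, at 4.48 and 4.82 against 7.80 and 8.52 in Scr.

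The partners of Slc3a2 were then set against each other per length, a description chosen after the values were seen and not tested. Slc7a7, Slc7a8 and Slc7a10, which pair with the same heavy chain, were added for this. Slc7a5 made up 67.9% and 75.4% of the summed light chains in Scr 1 and Scr 2, and 76.5% and 72.6% in miR-99 KD 1 and 2. Slc7a6 made up 10.5% and 10.7% in Scr against 6.15% and 7.22% under the knockdown. Slc7a7, which also exchanges cationic for neutral amino acids, held 5.43% and 5.62% in Scr against 5.38% and 6.18%, and these overlapped. Slc7a8, another carrier of neutral amino acids, held 15.6%, 8.08%, 11.7% and 13.2% in Scr 1, Scr 2 and the knockdown libraries 1 and 2, which overlapped too. The cystine chain Slc7a11 held 0.632% in Scr 1 and 0.122% to 0.201% in the other 3 libraries. Slc7a10 held 0% and 0.0816% in Scr against 0.123% and 0.722% under the knockdown. Those shares rest on 0 to 27 counts, and the gene did not pass the filter. Summed light chains per heavy chain came to 1.31 and 1.30 in Scr against 1.13 and 1.14 under the knockdown.

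Slc7a1 (ENSMUSG00000041313), the main carrier of arginine and lysine, works without a heavy chain. It stood at 39.4 and 37.3 CPM in the Scr libraries 1 and 2, against 45.1 and 43.5 in miR-99 KD 1 and 2. The groups did not overlap, but the difference was small, at a log2 difference of 0.21 ± 0.16 and a fold of 1.16 (95% interval 0.875 to 1.53; edgeR adjusted p = 0.551). The 2 carriers of cationic amino acids on the list, Slc7a1 and Slc7a6, thus stood on opposite sides of 0, and the difference between them was not tested.

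The sodium-coupled carriers of glutamine and alanine, Slc38a1 and Slc38a2, were lower or overlapping. Slc38a1 (ENSMUSG00000023169) stood at 137 and 141 CPM in Scr, against 100 and 123 in miR-99 KD 1 and 2. Both miR-99 KD values were below both Scr values, and they differed more from each other than the Scr values did. The log2 difference was -0.32 ± 0.15 (SE, 2 libraries a group; edgeR adjusted p = 0.379), and -0.18 without miR-99 KD 1. Slc38a2 (ENSMUSG00000022462), the form known to rise when amino acids are short, had the highest CPM of the 10. It stood at 395 and 389 CPM in Scr, against 327 and 402 in miR-99 KD 1 and 2. Only miR-99 KD 1 was low, at a log2 difference of -0.11 ± 0.15 for the groups (edgeR adjusted p = 0.770), and without that library it was 0.03. With libraries scaled by their totals alone both knockdown values of Slc38a2 were below both Scr values.

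Slc1a5 and Slc1a4 encode related exchangers of alanine, serine and cysteine, and the former also carries glutamine. Slc1a5 (ENSMUSG00000001918) stood at 263 and 308 CPM in the Scr libraries 1 and 2, against 239 and 177 in miR-99 KD 1 and 2. Both knockdown libraries were below both Scr libraries, with miR-99 KD 1 near Scr 1. The fold was 0.726 (95% interval 0.515 to 1.02), with a log2 difference of -0.46 ± 0.20 (SE, 2 libraries a group; edgeR adjusted p = 0.341, DESeq2 adjusted p = 0.216). The difference was -0.70 without miR-99 KD 1, where DESeq2 called it (adjusted p = 0.00623). Leaving out miR-99 KD 2 instead gave -0.26. Slc1a4 (ENSMUSG00000020142) was low throughout, at 178 counts in each Scr library and 110 and 151 in miR-99 KD 1 and 2. In CPM these were 5.32, 6.11, 4.17 and 5.69, and the groups overlapped, at a log2 difference of -0.21 ± 0.33 (edgeR adjusted p = 0.785).

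Slc43a1 (ENSMUSG00000027075) encodes a carrier of leucine and other large neutral amino acids that needs neither sodium nor a heavy chain. It stood at 153 and 141 CPM in the Scr libraries 1 and 2, against 223 and 190 in miR-99 KD 1 and 2. Neither knockdown value reached down to the Scr values. The fold was 1.41 (95% interval 1.09 to 1.82), with a log2 difference of 0.49 ± 0.15 (SE, 2 libraries a group; edgeR adjusted p = 0.251, DESeq2 adjusted p = 0.0614). Without miR-99 KD 2 the log2 difference was 0.60, where DESeq2 called it (adjusted p = 0.0312). Leaving out miR-99 KD 1 instead gave 0.37. Among the carriers of large neutral amino acids, Slc43a1 was higher in both knockdown libraries while Slc7a5 overlapped. Whether their differences are unequal was not tested.

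Markers of other cell types differed between the libraries as well. All 7 markers of the sorted stem and progenitor cells were detected and all 7 were lower in both knockdown libraries, against 26.0% of all genes. Their summed levels were 2320 and 2618 CPM in Scr against 1159 and 1238 under the knockdown. DESeq2 called 6 of the 7 lower, against 4.13% of all genes, and edgeR called 0. The marker lists were chosen with earlier results of these data known, so the shares in this paragraph describe the lists and do not test them. The sort marker Kit stood at 1149 and 1280 CPM in Scr against 670 and 774 under the knockdown. Ly6a (Sca-1) stood at 46.5 and 22.8 CPM against 12.4 and 22.3. Of the 12 erythroid markers, 8 were higher in both knockdown libraries, against 24.5% of all genes, and 4 overlapped. The 4 that overlapped were Hba-a1, Hbb-bs, Hbb-bt and Slc4a1, with Hbb-bs at 1992 and 468 CPM in Scr against 2379 and 707. Summed levels of the 12 were 11360 and 9412 CPM in Scr against 15656 and 15949 under the knockdown. Most of each sum came from Car1 and Car2. DESeq2 called 4 of the 12 higher, where it called 254 of all 15320 genes higher, and edgeR called 0. All 10 neutrophil and all 8 B cell markers were highest in miR-99 KD 1, with neutrophil sums of 28984 CPM there and 5243 to 8236 in the other libraries. All 10 neutrophil markers overlapped between the groups. B cell markers summed to 76.2 and 37.0 CPM in Scr against 270 and 83.4 in miR-99 KD 1 and 2. Of these 8 markers, 5 were higher in both knockdown libraries, or 62.5% against 24.5% of all genes. DESeq2 called 3 of them higher, where it called 254 of all 15320 genes higher, and edgeR called 0. In miR-99 KD 1, Slc7a6, Slc38a1, Slc38a2 and Slc1a4 had their lowest values, and Slc3a2, Slc7a1 and Slc43a1 their highest. Mast cell and basophil markers summed to 62.6 and 39.6 CPM in Scr against 79.6 and 110 under the knockdown, and endothelial and stromal markers to 146 and 105 against 145 and 79.1. T and NK cell markers summed to at most 5.23 CPM, with Ncr1 at 0 in all 4 libraries. The part of these cells in the transporter values was not tested. In bulk libraries, fewer cells of a type and less RNA per cell cannot be told apart.

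**Figure D3:**
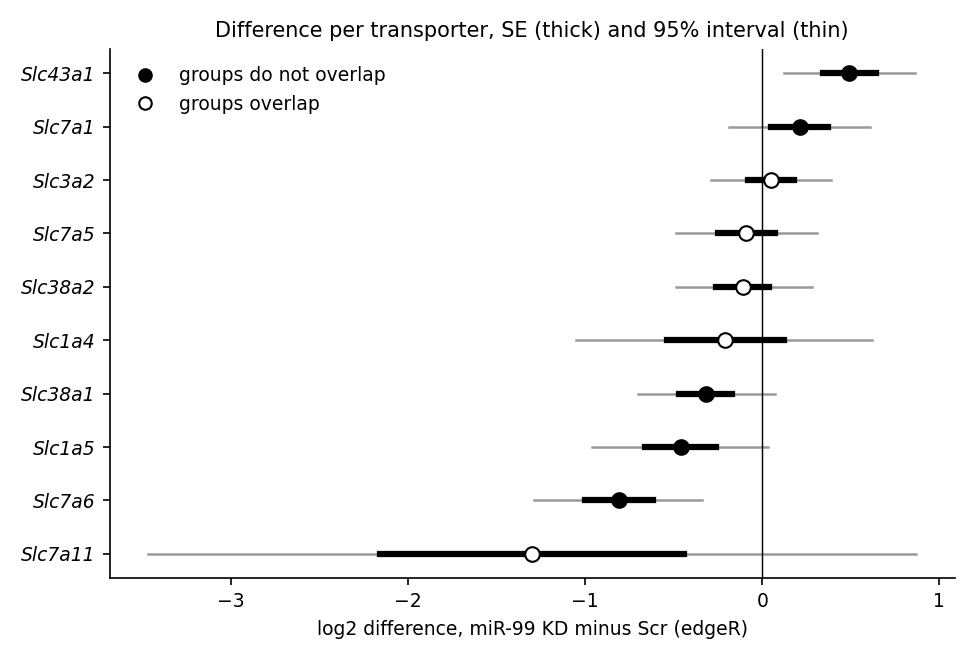
Log2 difference (miR-99 KD minus Scr, edgeR) of each transporter, with its standard error as a thick line and its 95% interval as a thin line. Filled points mark the 5 genes whose groups of libraries do not overlap. The intervals of Slc7a6, from -1.29 to -0.34, and of Slc43a1, from 0.12 to 0.86, leave out 0 before adjustment for the number of genes, and that of Slc7a11 is the widest.

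**Figure D4:**
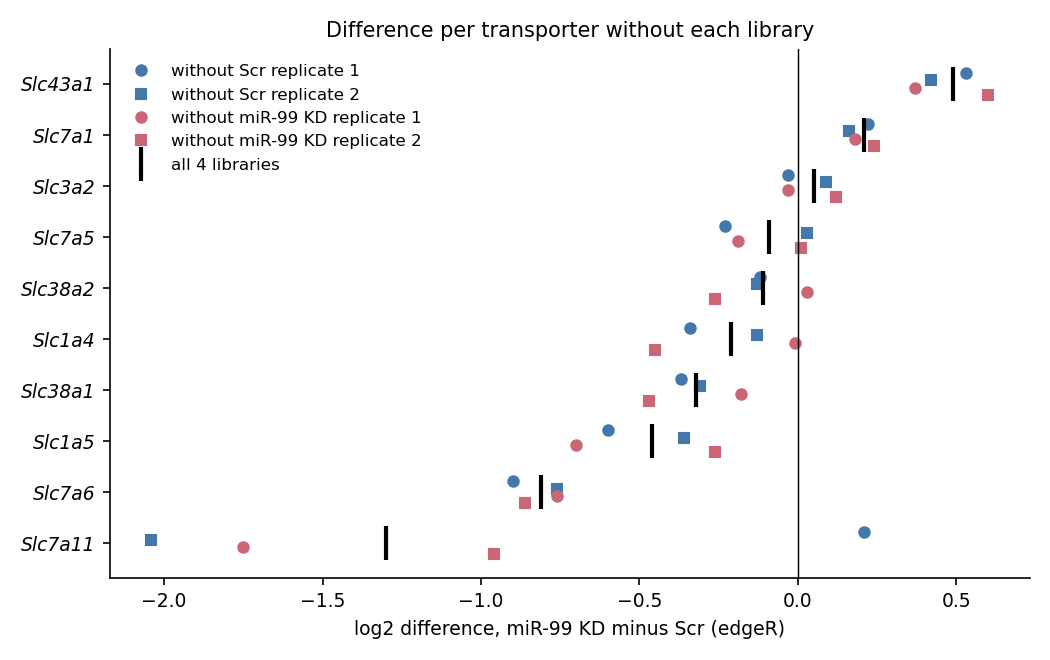
Log2 difference (miR-99 KD minus Scr, edgeR) of each transporter when 1 library was left out, beside the value from all 4 (black bars). Slc7a6 stays between -0.90 and -0.76, and Slc7a11 moves from -2.04 without Scr replicate 2 to 0.21 without Scr replicate 1.

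The pattern of Slc7a6 over the 4 libraries was most like those of Mef2c, Hgf and Car9. Likeness was the Euclidean distance in log2 CPM minus each gene's mean, over 4 libraries and among 9508 genes with a mean of at least 10 CPM. The distances were 0.0351 for Mef2c, a transcription factor of lymphoid and muscle cells, 0.0764 for Hgf, a growth factor, and 0.0806 for Car9, a carbonic anhydrase. Mef2c stood at 215 and 242 CPM in Scr against 123 and 134 under the knockdown.

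Genes listed as other amino acid transporters lay on both sides of 0. Of these 27 genes, 20 passed the filter, and the 7 others included Slc7a9 and Slc38a4, which had 0 counts in all 4 libraries. Of the 20, 6 were higher in both knockdown libraries, 5 lower and 9 overlapped, and neither edgeR nor DESeq2 called any. At an unadjusted p under 0.05 edgeR counted 2 higher and 1 lower. Their median log2 difference was 0.04. The 4 with the smallest p were Slc16a10, Slc38a10, Slc43a3 and Slc6a6. Slc16a10, a carrier of aromatic amino acids, stood at 19.8 and 20.5 CPM in Scr against 31.8 and 30.3 under the knockdown (log2 difference 0.62 ± 0.18, edgeR adjusted p = 0.247). Slc38a10, a relative of the glutamine carriers, stood at 195 and 245 CPM in Scr against 163 and 127 under the knockdown (log2 difference -0.60 ± 0.19, edgeR adjusted p = 0.272). Slc43a3 is of the same family as Slc43a1, and whether it carries amino acids was not examined. It was at 160 and 184 CPM against 230 and 226. Slc6a6, the taurine carrier, was at 88.1 and 92.2 CPM against 74.8 and 69.7. The other Slc43 gene of this list, Slc43a2, named here after its values were seen, was at 26.5 and 32.4 CPM against 22.7 and 10.5, so the Slc43 genes did not share a direction.

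Genes of the amino acid response, which shortage of amino acids is known to raise, were examined next. Of 27 genes of the Atf4 and amino acid response list, 26 passed the filter. Of these 8 were higher in both knockdown libraries, 4 lower and 14 overlapped, with a median log2 difference of 0.06. That is 30.8% higher and 15.4% lower, against 24.5% and 26.0% of all genes. edgeR called none, with 3 higher and 2 lower at an unadjusted p under 0.05, and DESeq2 called 2 higher, Asns and Ddit3. Over all genes edgeR counted 5.97% higher and 9.63% lower at that p, and DESeq2 called 254 of 15320 higher. Asns, which makes asparagine, stood at 229 and 233 CPM in Scr against 324 and 397 under the knockdown (log2 difference 0.64 ± 0.15, DESeq2 adjusted p = 0.00693, edgeR adjusted p = 0.227). Ddit3, a stress transcription factor, stood at 16.5 and 14.9 CPM against 26.2 and 26.7 (DESeq2 adjusted p = 0.0368). Mthfd2, a mitochondrial enzyme of folate metabolism, was at 53.1 and 46.3 CPM against 76.4 and 67.3, and Ppp1r15a, which helps to end the stress response, at 324 and 347 against 270 and 240. Neither was called. Atf4 itself, given because the list is named after it, stood at 184 and 148 CPM in Scr against 203 and 271 under the knockdown. Its log2 difference was 0.51 ± 0.20, and it was not called (edgeR adjusted p = 0.323, DESeq2 adjusted p = 0.156). Slc7a11 and Slc1a4, the transporters with a response element in the window searched, overlapped between the groups.

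Genes that sense amino acids for mTORC1 lay on both sides of 0. Of 30 listed, 29 were found and kept, and Samtor was not matched. Of the 29, 6 were higher in both knockdown libraries, 8 lower and 15 overlapped, with a median log2 difference of -0.03. The groups were thus apart in 48.3% of them, against 50.5% of all genes. At an unadjusted p under 0.05 edgeR counted 1 higher and 4 lower, where 5.97% of all genes were higher and 9.63% lower. It called none, and DESeq2 called 1, Sesn1, against 5.79% of all genes. Sesn1, a sestrin that restrains mTORC1, stood at 132 and 169 CPM in Scr against 102 and 94.5 under the knockdown (log2 difference -0.62 ± 0.17, DESeq2 adjusted p = 0.0394, edgeR adjusted p = 0.233). Its relative Sesn3 was at 4.48 and 5.08 CPM against 2.54 and 2.22. Rragb, a GTPase that brings mTORC1 to the lysosome, was at 27.7 and 23.5 CPM against 17.4 and 14.3, and Lamtor3, of the complex that anchors it, at 54.0 and 47.5 against 67.2 and 67.4. These 3 were not called. Mtor, given because it is a published target of the miR-99 family, overlapped between the groups. It stood at 34.2 and 44.4 CPM in Scr against 34.9 and 43.8 under the knockdown (log2 difference 0.00 ± 0.22, edgeR adjusted p = 0.999).

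**Figure D5:**
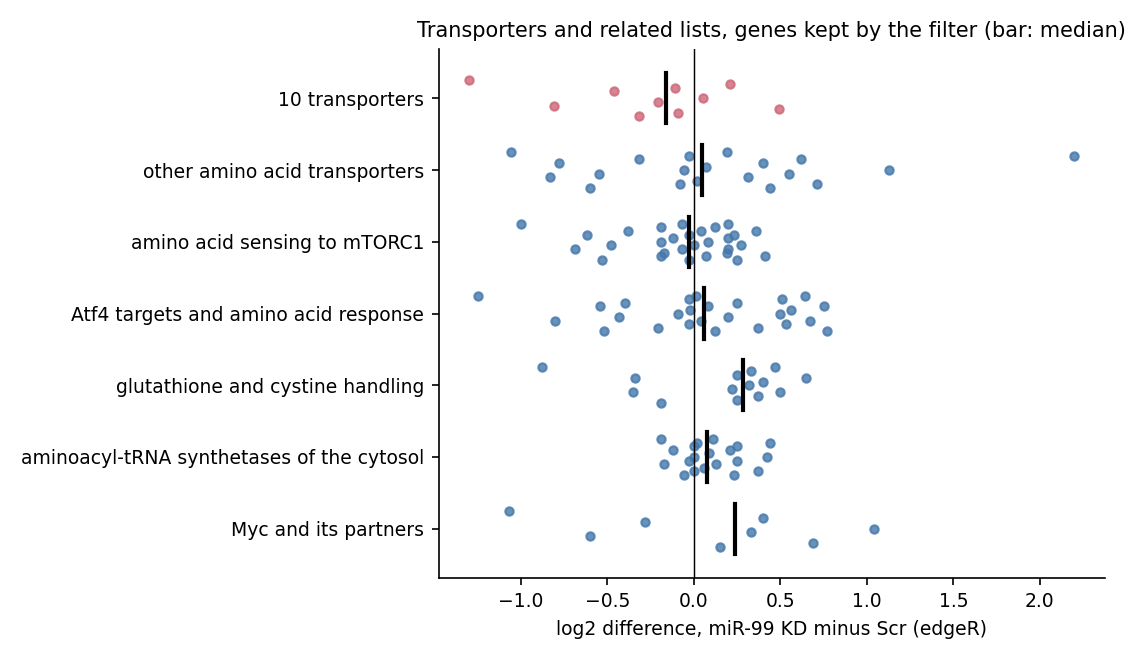
Log2 differences (miR-99 KD minus Scr, edgeR) of the 10 transporters and of the genes of 6 related lists that passed the filter, each point 1 gene and each bar the median of its list. The median of the 10 transporters, at -0.16, is the lowest of the 7, that of glutathione and cystine handling, at 0.28, the highest, and every list holds genes on both sides of 0.

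Cystine taken up by Slc7a11 feeds glutathione synthesis. The list of glutathione and cystine handling is wider than synthesis and also holds antioxidant genes and their regulators. Of its 15 genes, 14 passed the filter. Of these, 7 were higher in both knockdown libraries, 2 lower and 5 overlapped, with a median log2 difference of 0.28. edgeR called none, with 1 higher and 1 lower at an unadjusted p under 0.05, and DESeq2 called 1 higher and 1 lower. Over all genes, 15.6% were at that edgeR p in either direction, and DESeq2 called 5.79%. Nfe2l2, the transcription factor of the antioxidant response, rose by DESeq2, from 195 and 208 CPM in Scr to 306 and 325 in miR-99 KD (log2 difference 0.65 ± 0.13, DESeq2 adjusted p = 7.7e-04, edgeR adjusted p = 0.213). Srxn1, a sulfiredoxin, fell by DESeq2, from 28.3 and 23.7 CPM to 14.6 and 13.6 (log2 difference -0.88 ± 0.21, DESeq2 adjusted p = 0.0204, edgeR adjusted p = 0.227). Gclm, a subunit of the rate-limiting enzyme, was at 514 and 454 CPM against 577 and 701, and Txnrd1, a thioredoxin reductase, at 240 and 233 against 205 and 168. Neither was called.

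The enzymes that load amino acids onto tRNA, all 20 of which were kept, had a median log2 difference of 0.07. In both knockdown libraries 7 were higher and 2 lower, 11 overlapped, and edgeR and DESeq2 called none, with 2 higher at an unadjusted edgeR p under 0.05. Gars, the enzyme for glycine, stood at 319 and 296 CPM in Scr against 374 and 451 under the knockdown, and Rars, that for arginine, at 141 and 146 against 174 and 198. Farsb, a subunit of the enzyme for phenylalanine, was at 235 and 239 CPM against 270 and 373, and Qars, the enzyme for glutamine, at 64.5 and 68.6 against 82.8 and 75.5. Myc, which is known to raise several of these carriers, stood at 556 and 551 CPM in Scr against 704 and 689 under the knockdown (log2 difference 0.33 ± 0.12, edgeR adjusted p = 0.308, DESeq2 adjusted p = 0.112). Its relative Mycn stood at 67.0 and 73.9 CPM against 40.1 and 53.1, its partner Max at 78.0 and 64.7 against 90.5 and 139, and Mnt, which opposes it, at 13.8 and 12.6 against 7.66 and 4.89. Of the 8 genes of this list 3 were higher in both knockdown libraries, 3 lower and 2 overlapped, with a median of 0.24. The groups were apart in 75.0% of them, against 50.5% of all genes. edgeR and DESeq2 called none, with 2 higher and 2 lower at an unadjusted edgeR p under 0.05. At that p 5.97% of all genes were higher and 9.63% lower.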

How the data were processed

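RNA of GFP-positive LSK cells from 2 mice per group was read from 4 deposited tables of raw read counts per Ensembl gene, 1 per library. Per the labels' protocols, Trizol LS served for lysis and SMARTer for amplification. The submitters' processing notes name the build mm9 and the tools HTSeq, STAR, DESeq2 and Picard; versions, annotation and strand setting were not given in the sources used. Reads with several alignments (18.0% to 21.9% of reads) and reads with no feature (8.31% to 13.8%) were set aside by the authors' counting, and their rows were kept out of library sizes. Totals pasted below the gene rows carry other library numbers than the titles in some tables; the titles were followed, and groups are unaffected. No exon of another gene overlapped an exon of the 10 transporters in GENCODE M21, whose build is later than mm9; gene lengths are merged exons of its basic set.

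The main test was edgeR 4.0.16 (R 4.3.3), with filterByExpr, TMM scaling and Benjamini-Hochberg adjustment at 0.05 over 15320 genes; DESeq2 1.42.0 and limma 3.58.1 (voom) were alternatives, with other scalings and filters, a replicate block and leaving out each library. Standard errors and 95% intervals come from the edgeR fit. All tests are two-sided. The edgeR and DESeq2 fits were also run on simulated counts with known changes, whose outcome is not given here. Those counts held no differences in cell make-up between libraries, so they cannot explain the unlike numbers of genes called. Members and lists were chosen with earlier results of these data known. Text names all members, up to 4 genes of each related list with the smallest p, and 3 genes nearest to the member with the smallest p. Other genes are named for the reason given with each. Without molecular identifiers, PCR copies are counted too.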

Additional observations from a re-analysis of the deposited data

How the results depend on the processing

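DESeq2 fits with the replicate block or lacking a library, and the alternative counts by unadjusted p, were added after seeing the data. The cause of these changes was not tested. Called genes numbered 0 with edgeR over all 4 libraries, 887 with DESeq2, 1064 without a filter and 0 to 1506 without single libraries, where edgeR called 1013 if miR-99 KD 1 was left out and 437 if miR-99 KD 2 was. DESeq2 called 131 without Scr 1, 27 without Scr 2, 1506 without the first knockdown library and 840 without the second. A lone library in a group was taken to vary as the other group does. They numbered 0 with limma-voom, the other 3 scalings, the 10 CPM filter and the replicate block. The count of transporters called, 0 by edgeR, was 1 by DESeq2 and 0 to 1 without single libraries. Transporters at an unadjusted edgeR p under 0.05 numbered 2, 4 with libraries scaled by their totals, and 1 to 3 without single libraries (from 0 with DESeq2). The median of the transporters, -0.16, was -0.25 with libraries scaled by their totals, -0.13 with a filter at 10 CPM (which drops Slc7a11 and Slc1a4) and -0.26 to -0.10 without single libraries (-0.11 with DESeq2 without Scr 2).

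The direction of 4 genes changed in some fit: Slc7a5 ran from -0.23 to 0.05, Slc3a2 from -0.03 to 0.12, Slc38a2 from -0.26 to 0.03 and Slc7a11 from -2.04 to 0.23 without single libraries, and Slc3a2 stood at -0.04 with library totals alone. Without Scr 1, Slc7a11 was 0.21 by edgeR and Slc3a2 -0.02 by DESeq2, and without miR-99 KD 2 Slc7a5 was 0.01 by DESeq2. The other 6 transporters kept their sign in each fit. Deviations of libraries with the same number correlated at 0.0622, over 2 pairs, and the numbers were read as names only. With the replicate block edgeR called 0 genes and 0 transporters, and DESeq2 390 genes and 0 transporters. Slc7a11, with 22 to 155 counts and a log2 gap of 2.27 between the Scr libraries, had a 95% interval of 0.0902-fold to 1.83-fold. Slc1a4, with 110 to 178 counts, had a standard error of 0.33 on the log2 scale.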
